A study of Mus musculus with 12 samples.

Results

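Presynaptic vesicle and active zone genes were followed in cerebellar granule cells that lack functional β4 and received 1 splice variant of it. The set held 31 genes of the nerve terminal, of 10983 genes measured. A gene was taken when a probe set was annotated to its symbol alone, and its brightest probe set over all 12 arrays stood for it. The 31 genes had 86 such probe sets, of which 72 exceeded 4 (log2) in 3 or more arrays. All 31 genes passed that filter on their brightest probe set, and 4 genes had a single probe set.

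The cultures came from lethargic mice on the 129/SvJ background at postnatal day 7. Lethargic mice are mutant for Cacnb4, which encodes the calcium channel subunit β4, and all groups shared this mutation, the eGFP controls included. Lentivirus carrying β4a, β4b, β4e or eGFP was applied right after plating for 12 hours, Ara-C was given against dividing non-neuronal cells, and RNA was taken after 9 days in vitro. Each group had 3 arrays, with the same replicate numbers 1 to 3 in every group. The protocol names BALB/c mice as well, but the labels of all 12 arrays give lethargic 129/SvJ. The labels do not say whether replicates were separate cultures or litters, so p-values measure only the spread between these samples. How many cells took up the virus is not given in the sources used here.

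A presynaptic terminal stores transmitter in vesicles, docks and primes them at the active zone opposite the postsynaptic cell, and fuses them when calcium enters through voltage-gated channels. Synaptotagmins sense that calcium, the SNARE proteins syntaxin, SNAP-25 and synaptobrevin pull the membranes together, and complexins, NSF and Munc13 proteins control or recycle the SNARE machinery. Large scaffolds such as Bassoon, Piccolo and RIM hold vesicles and channels in register, and dynamin, amphiphysin and endophilin retrieve membrane afterwards. β subunits bind the pore-forming subunit of these channels, and granule cell axons, the parallel fibres, form the most numerous synapses of the cerebellar cortex.

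All values were the deposited log2 GCRMA intensities, and the levels of different probe sets cannot be set against each other. Gabra6, a GABA-A receptor subunit typical of mature granule cells, lay between 13.58 and 14.02 on every array. The 10 measured granule cell markers of 11 averaged 12.17 to 12.36 in β4a, 12.19 to 12.31 in β4b, 12.24 to 12.47 in β4e and 12.25 to 12.47 in eGFP cultures. Markers of other cells were measured too: the 9 of 9 astrocyte markers averaged 9.16 to 10.28, 9.34 to 10.58 and 9.46 to 9.53 in β4a, β4b and β4e cultures, against 8.29 to 9.56 in eGFP cultures. The oligodendrocyte gene Mbp lay between 13.94 and 14.52, and the interneuron gene Gad1 between 12.3 and 13.7. These levels do not give the share of each cell type. In such bulk RNA, fewer cells of a type and less RNA per cell cannot be told apart. The 3 probe sets of Cacnb4 were above 4 on all 12 arrays, and the brightest read 11.96 to 12.10 in β4a, 11.80 to 12.09 in β4b, 11.87 to 12.15 in β4e and 12.01 to 12.24 in eGFP cultures. The ranges of the other 2 overlapped between groups as well. Within replicate number, however, the probe sets differed in direction. The dimmest read 9.97, 9.93 and 10.16 in β4a cultures of numbers 1 to 3, against 9.69, 9.47 and 10.05 in eGFP cultures. It was above eGFP in every number with β4a and β4b, but not in number 2 with β4e. The middle probe set was below eGFP in every number with β4a and β4b, and the brightest with β4b and β4e. The probe sets thus did not place the variants on the same side of eGFP. Whether the probe sets read the viral transcripts is not given in the sources used here.

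Most of the 31 genes lay slightly below eGFP in β4a and β4b cultures, and the differences were small beside the spread of the arrays. In β4a cultures 22 of 31 were below eGFP and 9 above, in β4b cultures 25 and 6, and in β4e cultures 18 and 13, whereas 43.3%, 40.9% and 39.4% of all genes were below eGFP in the same comparisons. The median difference was -0.08, -0.12 and -0.03 on the log2 scale for β4a, β4b and β4e, beside 0.03, 0.04 and 0.03 over all genes. Within replicate number, 8 members (25.8%) were below eGFP in all 3 pairs with β4a, beside 14.0% of all genes. For β4b this held for 12 members (38.7%), beside 14.1% of all genes, and for β4e for 3 members (9.7%), beside 8.79%. The members were chosen with earlier results of these data known, so these shares are not independent of that choice. Of 72 other presynaptic genes, 16.7%, 15.3% and 8.3% were below eGFP in all 3 pairs with β4a, β4b and β4e. Granule cell markers lay to the same side, with 8 of 10 below eGFP with β4a and 7 of 10 with β4b (6 and 4 in all 3 pairs), but 4 of 10 with β4e, and 4, 4 and 3 of the 4 measured interneuron markers were below eGFP. Their part in the members' differences was not tested. Mean differences over 0.5 in size were found for 3, 4 and 2 members (9.7%, 12.9% and 6.5%), beside 5.18%, 7.07% and 1.97% of all genes. The 3 comparisons share the eGFP arrays, so their like direction is not independent.

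No member passed limma's test in any of these comparisons. Without a block for replicate number, 0 of 23044 probe sets passed for any variant (a background of 0%), and the smallest adjusted p of a member was 0.9999. At an unadjusted p below 0.05 stood 0 members for β4a and β4e and 1 for β4b, Syt1, beside 1.58%, 0.360% and 2.63% of all probe sets. With the block, 3 probe sets (0.0130%) passed for β4a, 3 (0.0130%) for β4b and 0 for β4e, and 5 (0.0217%) for the mean of the variants, none of them of a member. The smallest blocked adjusted p of a member was 0.1725, 0.0582 and 0.8734 for β4a, β4b and β4e, each time that of Vamp1. At an unadjusted p below 0.05 with the block stood 5 members (16.1%) for β4a, 7 (22.6%) for β4b and 2 (6.5%) for β4e. The background was 15.3%, 19.3% and 5.54% of all probe sets, so these shares were near it.

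**Figure D1:**
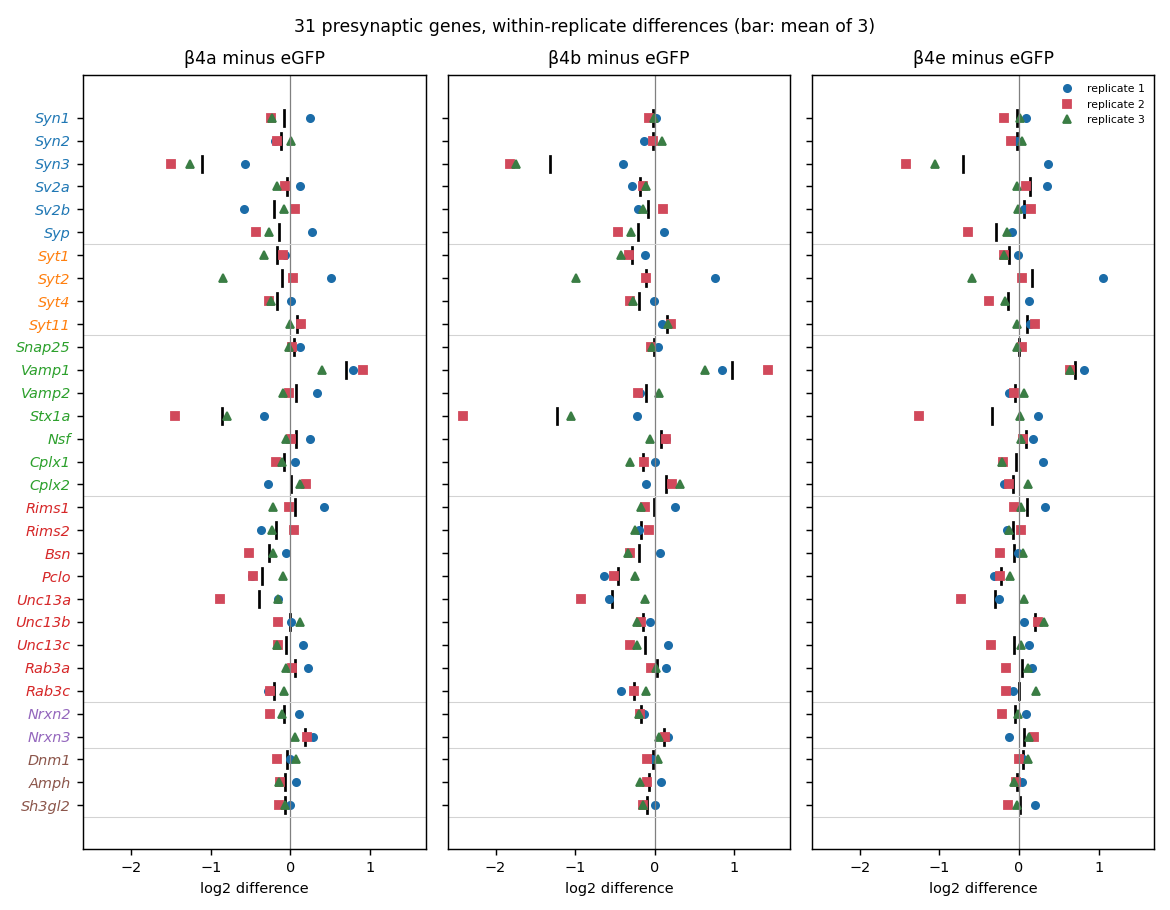
Differences from eGFP of the 31 genes, grouped by role, on the log2 scale. Each point is the difference within 1 replicate number (variant minus eGFP) and each bar the mean of the 3. The means of Syn3 and Stx1a lie furthest below 0 and that of Vamp1 furthest above, and the means of the remaining genes except Unc13a lie within 0.5 of 0.

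The direction was not the same in every replicate number. The median member difference with β4a was 0.06 in number 1, -0.15 in number 2 and -0.11 in number 3. With β4b it was 0.00, -0.14 and -0.15, and with β4e 0.06, -0.12 and 0.01. The set thus lay near or above 0 in number 1 and below 0 in number 2 for every variant. Without number 2, the median with β4e was 0.03, and that with β4a was -0.03. The median difference of the 9 astrocyte markers was below 0 in number 1 and above 0 in numbers 2 and 3 for every variant, at -0.32, 0.76 and 1.12 with β4a, -0.28, 0.98 and 1.38 with β4b, and -0.05, 1.04 and 0.57 with β4e. Its part in the members' differences was not tested.

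**Figure D2:**
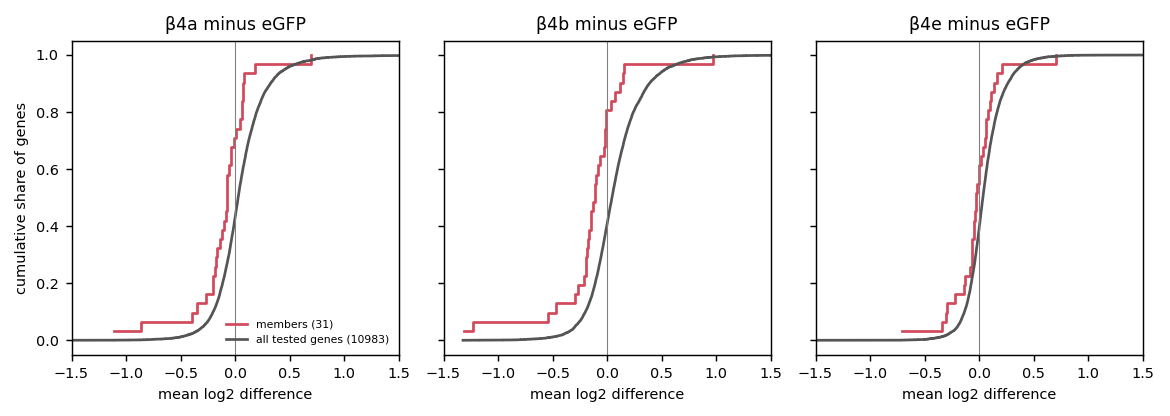
Cumulative share of genes (y axis) by mean difference from eGFP on the log2 scale (x axis, shown from -1.5 to 1.5), for the 31 presynaptic genes and for all 10983 genes, 1 panel per variant. The line of the presynaptic genes lies left of that of all genes around 0 for β4a and β4b (medians -0.08 and -0.12 against 0.03 and 0.04), and less so for β4e.

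Among the vesicle phosphoproteins and membrane proteins, the 6 members were all below eGFP with β4a and with β4b, and 4 of 6 with β4e, but Syn3 alone differed by more than 0.3 on average. Syn3 encodes synapsin III, the synapsin best known from immature neurons. Its brightest probe set, 1435311_s_at, read 8.90, 4.97 and 7.59 in β4a cultures of replicate numbers 1, 2 and 3, 9.07, 4.66 and 7.12 in β4b cultures, 9.83, 5.05 and 7.80 in β4e cultures, and 9.46, 6.48 and 8.85 in eGFP cultures. The replicate numbers spread over more than 2 log2 units within every group, and all groups overlapped. Within replicate number, β4a minus eGFP was -0.57, -1.51 and -1.27, a mean of -1.11 ± 0.49 (SD, n = 3), or 2.16-fold lower. With β4b the mean was -1.32 ± 0.80 (2.49-fold lower). With β4e, where number 1 was above eGFP by 0.37, it was -0.70 ± 0.95. The limma adjusted p with the block was 0.1905, 0.0922 and 0.8783 for β4a, β4b and β4e.

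A second Syn3 probe set, 1435310_at, averaged -0.63, -0.50 and -0.07 against eGFP with β4a, β4b and β4e, and another was not above 4 on any array. In the blocked fits that left out 1 array each, a choice made after seeing the data, Syn3 passed once. This was with β4b and without eGFP number 1 (log2 difference -1.74, limma adjusted p = 0.0388). The share of all probe sets that passed in that fit is not given here, so this call has no background beside it. Leaving out single arrays moved its β4a difference between -1.54 and -0.84 with the block, and between -2.01 and -0.02 without it, where the replicate numbers are then unequal between groups.

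The other vesicle genes differed little. Syp (synaptophysin, an abundant vesicle membrane protein) averaged -0.14, -0.21 and -0.29 against eGFP for β4a, β4b and β4e, and it was above eGFP in number 1 of β4a and β4b. Syn1 and Syn2, the main synapsins that tether vesicles, averaged between -0.12 and -0.02 over the 3 variants. Sv2a and Sv2b, vesicle glycoproteins, lay between -0.20 and 0.13. Sv2a was -0.18 with β4b and 0.13 with β4e.

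Of the 4 synaptotagmins, 3 were below eGFP with β4a and with β4b and 2 with β4e. Syt1, the main calcium sensor for fast release, and Pclo were the 2 members whose 9 within-number differences were all below 0, as they were for 2.79% of all genes. Its brightest probe set read 13.17, 13.12 and 12.98 in β4a, 13.12, 12.89 and 12.88 in β4b, 13.22, 13.03 and 13.12 in β4e, and 13.24, 13.22 and 13.31 in eGFP cultures. The β4a and β4b arrays did not overlap those of eGFP, and the β4e arrays did. The mean differences were -0.17 ± 0.14, -0.29 ± 0.16 and -0.13 ± 0.10 (SD, n = 3 each). The blocked limma adjusted p was 0.4223, 0.1546 and 0.9112. Its other probe sets disagreed in sign with β4a (means of -1.23, 0.04 and 0.63) and β4b (-1.31, -0.17 and 0.44), and were all below eGFP with β4e (-0.55, -0.52 and -0.14). Groups that did not overlap were found for 2 members each with β4a and β4b (6.5%), Syt1 and Nrxn3, beside 4.13% and 5.50% of all genes, and for no member with β4e (2.32% of all genes).

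Syt4, a synaptotagmin not known as a sensor for fast release, averaged -0.17, -0.20 and -0.14, with differences within 0.13 of 0 in number 1. Syt11, a synaptotagmin that does not bind calcium, averaged 0.08, 0.16 and 0.10. Syt2, a fast calcium sensor of the hindbrain, gave differences of 0.51, 0.03 and -0.85 in numbers 1 to 3 with β4a, 0.76, -0.11 and -0.99 with β4b, and 1.06, 0.03 and -0.59 with β4e. For every variant number 1 was above eGFP and number 3 below it, against the same eGFP arrays.

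The SNARE proteins and their partners held the member furthest above eGFP and 1 of the lowest, while the rest stayed close to 0. Of the 7, 2 were below eGFP with β4a and 4 each with β4b and β4e. Vamp1, which encodes synaptobrevin 1, a vesicle SNARE, was above eGFP in all 9 pairs, as were 5.61% of all genes. Its probe set 1421863_at read 5.69, 7.46 and 5.90 in β4a, 5.75, 7.97 and 6.14 in β4b, 5.72, 7.19 and 6.15 in β4e, and 4.90, 6.55 and 5.51 in eGFP cultures. Number 2 was highest in each group, and the eGFP range overlapped each variant. The mean difference was 0.70 ± 0.27 with β4a, 0.97 ± 0.41 with β4b and 0.70 ± 0.10 with β4e (SD, n = 3 each), or 1.62-fold, 1.95-fold and 1.63-fold higher. The blocked limma adjusted p was 0.1725, 0.0582 and 0.8734. A second Vamp1 probe set was not above 4 on any array and gave no check.

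Stx1a encodes syntaxin 1A, the plasma membrane SNARE that also binds calcium channels. Its brightest probe set, 1437390_x_at, read 8.57, 6.10 and 6.07 in β4a, 8.69, 5.14 and 5.82 in β4b, 9.15, 6.29 and 6.88 in β4e, and 8.91, 7.55 and 6.87 in eGFP cultures. Number 1 stood at 8.57 or above in every group, and the groups overlapped. The mean difference was -0.86 ± 0.56 with β4a (1.82-fold lower), -1.23 ± 1.10 with β4b (2.34-fold lower) and -0.34 ± 0.80 with β4e (SD, n = 3 each). Number 2 carried the most of it, at -1.44, -2.41 and -1.26, while β4e numbers 1 and 3 lay at 0.24 and 0.01. The blocked limma adjusted p was 0.2685, 0.1133 and 0.9355. The other Stx1a probe set gave -0.32, -0.55 and -0.06. By Affymetrix's naming, the suffixes of the brightest Stx1a and Syn3 probe sets mark probes that can also match other transcripts.

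Snap25, the other plasma membrane SNARE, lay between -0.01 and 0.04 on average for the 3 variants, and Vamp2, the main vesicle SNARE, between -0.12 and 0.07. Nsf, the ATPase that takes used SNARE complexes apart, averaged 0.07, 0.07 and 0.08. Of the complexins, which clamp and promote fusion, Cplx1 averaged -0.08, -0.15 and -0.04 and Cplx2 0.01, 0.14 and -0.07. On their brightest probe sets, the SNARE genes other than Vamp1 and Stx1a were thus within 0.2 of eGFP on average. Some of their other probe sets lay further out. Nsf averaged -0.50, -0.50 and -0.35 on 1457205_at, and Vamp2 0.40, 0.38 and 0.20 on 1420833_at.

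**Figure D3:**
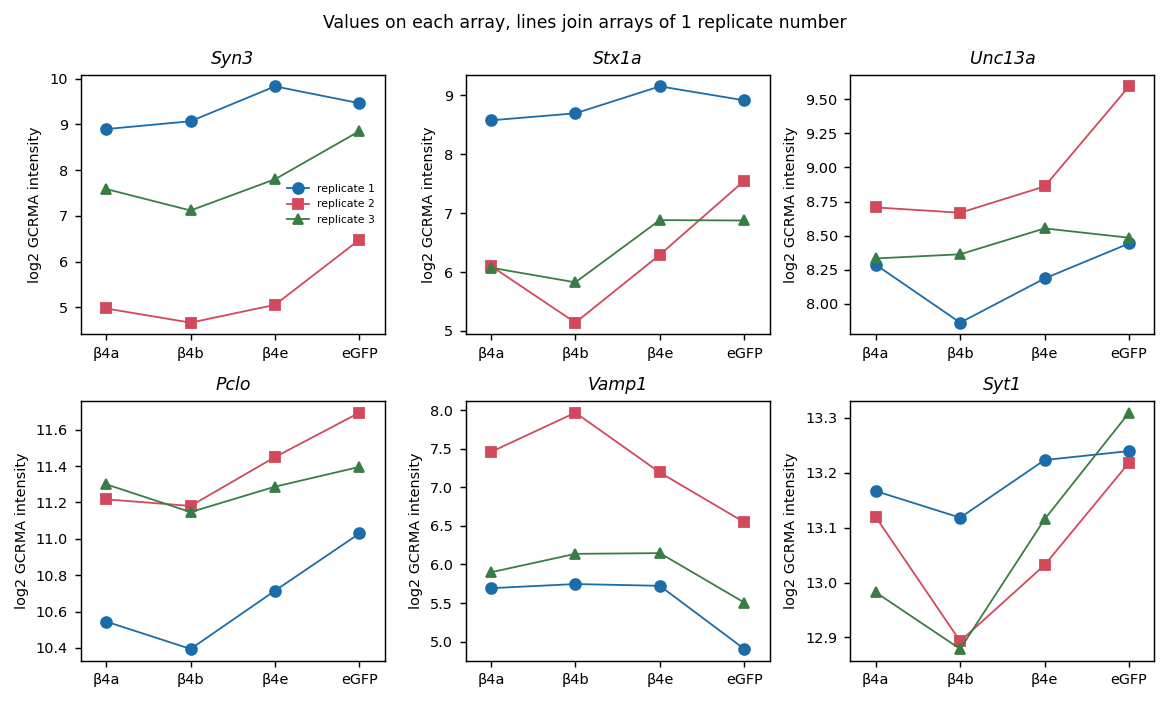
Log2 intensity on each of the 12 arrays for Syn3, Stx1a, Unc13a, Pclo, Vamp1 and Syt1 (y axes differ), with β4a, β4b, β4e and eGFP from left to right and lines that join arrays of the same replicate number. For Syn3 the replicate numbers lie further apart than the groups. For Stx1a number 1 lies above numbers 2 and 3, and for Syt1 the eGFP arrays lie above all β4a and β4b arrays.

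Among the 9 active zone and priming proteins, 7 (β4a), 8 (β4b) and 6 (β4e) were below eGFP, and 4, 5 and 1 of them were below it in all 3 pairs. Pclo encodes Piccolo, a giant scaffold of the active zone. It read 10.55, 11.22 and 11.30 in β4a, 10.39, 11.18 and 11.15 in β4b, 10.71, 11.45 and 11.29 in β4e, and 11.03, 11.69 and 11.40 in eGFP cultures on probe set 1455373_at. All 9 pairs were below eGFP, with means of -0.35 ± 0.22, -0.47 ± 0.20 and -0.22 ± 0.10 (SD, n = 3 each). The blocked limma adjusted p was 0.2112, 0.0924 and 0.8917. The other 2 Pclo probe sets also averaged below eGFP for every variant, at -0.14 and -0.44 with β4a, -0.35 and -0.29 with β4b, and -0.18 and -0.27 with β4e.

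Unc13a encodes Munc13-1, the main vesicle priming factor. It read 8.29, 8.71 and 8.33 in β4a, 7.86, 8.67 and 8.36 in β4b, 8.19, 8.86 and 8.55 in β4e, and 8.44, 9.60 and 8.48 in eGFP cultures. The eGFP array of number 2 stood above all others. The mean differences were -0.40 ± 0.42, -0.54 ± 0.40 and -0.31 ± 0.40 (SD, n = 3 each), with -0.89, -0.93 and -0.73 in number 2. The blocked limma adjusted p was 0.3007, 0.1437 and 0.8936. Leaving out single arrays kept the β4e difference between -0.48 and -0.09 with the block, and gave 0.07 without eGFP number 2 and without the block.

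The related Unc13b (Munc13-2) averaged -0.01, -0.15 and 0.21, and Unc13c (Munc13-3), which is enriched in cerebellar granule cells, -0.06, -0.13 and -0.07. Bsn, the scaffold Bassoon, averaged -0.26, -0.20 and -0.07. Of the small vesicle GTPases, Rab3c averaged -0.21, -0.27 and -0.01 and Rab3a 0.06, 0.03 and 0.03. Of the RIM scaffolds, Rims2 averaged -0.19, -0.17 and -0.08 and Rims1 0.06, -0.01 and 0.10. On their brightest probe sets, these remaining active zone genes stayed within 0.3 of eGFP on average, with Bsn and Rab3c the lowest.

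On their brightest probe sets, the 2 neurexins, presynaptic adhesion proteins, lay on opposite sides of eGFP with every variant. Nrxn3 averaged 0.18 ± 0.12, 0.12 ± 0.05 and 0.06 ± 0.17 (SD, n = 3 each), and its arrays did not overlap those of eGFP for β4a and β4b (12.52 to 12.67 and 12.53 to 12.59, against 12.37 to 12.47). The blocked limma adjusted p of Nrxn3 was 0.4468, 0.5874 and 0.9749. Its probe sets 1433788_at and 1438193_at also averaged above eGFP with every variant, while 1439629_at averaged -0.03, -0.26 and -0.27. All of these overlapped eGFP. Nrxn2 averaged -0.08, -0.17 and -0.05. The 3 endocytosis genes were close to eGFP on their brightest probe sets: Dnm1 (dynamin 1), Amph (amphiphysin) and Sh3gl2 (endophilin A1) averaged between -0.10 and 0.05. Other Sh3gl2 probe sets lay above eGFP, at 0.47, 0.54 and 0.35 (1449228_at) and 0.08, 0.22 and 0.12 (1418792_at).

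The promoters of 4 of the members described above are shown because, of the members matched to the RefSeq promoters, they had the widest mean differences from eGFP with β4a and β4b. Each run is the 250 bases before the RefSeq start on GRCm38.p6, read 5′ to 3′ on the gene's strand. Capitals mark a GC box (GGGCGG), the core bound by Sp factors, or TGACG, the core of the cAMP response element, on either strand, where adjoining matches run together. The stretches lie at chr5:135023232-135023481 (+) for Stx1a, chr8:71671758-71672007 (-) for Unc13a, chr5:14514668-14514917 (+) for Pclo and chr6:125215331-125215580 (+) for Vamp1.
Stx1a: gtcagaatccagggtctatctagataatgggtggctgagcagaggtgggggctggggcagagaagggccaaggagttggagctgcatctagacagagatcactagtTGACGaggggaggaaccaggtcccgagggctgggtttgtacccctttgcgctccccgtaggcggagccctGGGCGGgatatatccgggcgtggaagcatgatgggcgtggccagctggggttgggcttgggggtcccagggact
Unc13a: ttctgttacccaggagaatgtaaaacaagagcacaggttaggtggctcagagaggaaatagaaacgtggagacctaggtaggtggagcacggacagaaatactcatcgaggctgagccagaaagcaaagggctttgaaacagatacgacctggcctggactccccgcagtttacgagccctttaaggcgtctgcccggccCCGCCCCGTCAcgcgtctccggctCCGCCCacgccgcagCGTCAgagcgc
Pclo: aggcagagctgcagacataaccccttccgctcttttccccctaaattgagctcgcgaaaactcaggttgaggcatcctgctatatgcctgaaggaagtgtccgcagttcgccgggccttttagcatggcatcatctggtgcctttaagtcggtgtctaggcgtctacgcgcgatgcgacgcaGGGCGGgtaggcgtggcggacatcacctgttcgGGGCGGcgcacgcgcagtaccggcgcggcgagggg
Vamp1: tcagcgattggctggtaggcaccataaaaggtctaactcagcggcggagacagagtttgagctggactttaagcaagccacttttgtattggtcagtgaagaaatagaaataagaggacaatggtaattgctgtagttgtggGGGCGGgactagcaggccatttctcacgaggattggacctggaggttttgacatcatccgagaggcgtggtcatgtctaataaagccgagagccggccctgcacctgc
The 25 members with an entry had 34 promoters. The GC box stood in 18 of them (52.9%), those of Vamp1, above eGFP, and of Stx1a, Unc13a and Pclo, below eGFP, among them. It was in 32.7% of 32851 RefSeq mouse promoters of this length. TGACG stood in 6 of the 34 (17.6%), those of Stx1a and Unc13a among them, beside 17.8% of all. A match of letters is a description of the window and not a binding site.

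Different probe sets of a gene often disagreed in sign. Of the 22 members with several measured probe sets, 9 had all of them below eGFP with β4a, 5 all above and 8 of both signs. With β4b these numbers were 8, 1 and 13, and with β4e 9, 3 and 10. Unc13c, for example, averaged -0.06 and -0.04 on 2 probe sets and 0.63 on another with β4a, and Nsf 0.07, 0.21 and -0.50. Small mean differences of single genes therefore depended on the choice of probe set.

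**Figure D4:**
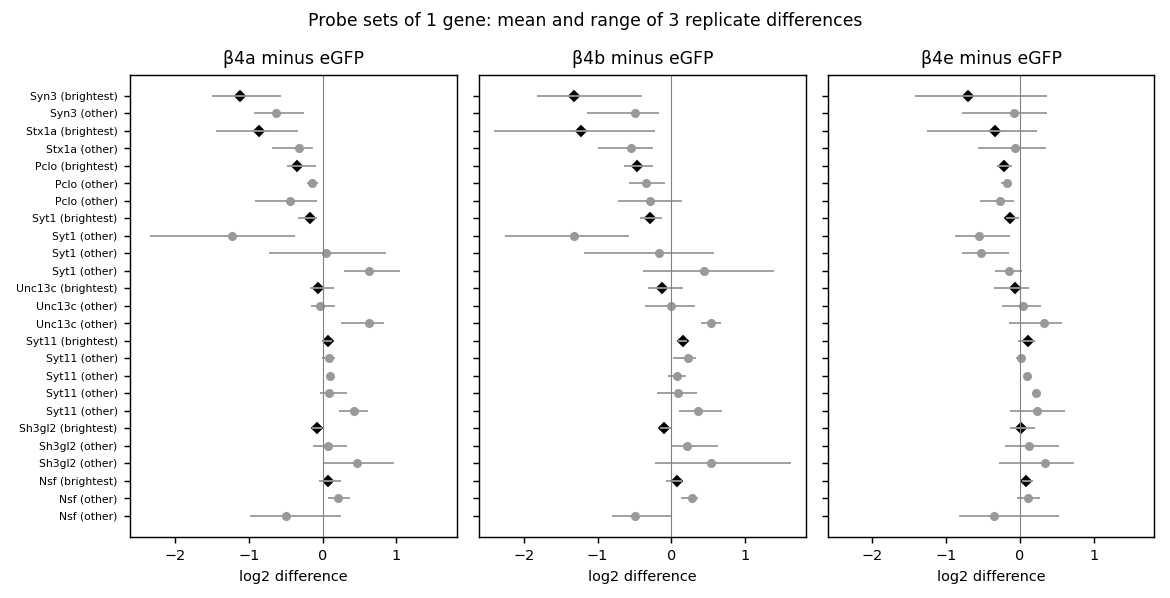
Mean difference from eGFP (x axis, log2) for each probe set of Syn3, Stx1a, Pclo, Syt1, Unc13c, Syt11, Sh3gl2 and Nsf, with lines for the range of the 3 pairs and diamonds for the brightest probe set of the gene. All Pclo and both measured Stx1a and Syn3 probe sets average below 0, and with β4a and β4b those of Syt1 and Unc13c lie on both sides.

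Set against each other, the variants gave small differences for most members. Of the 31 members, 24 were lower in β4a than in β4e cultures and 24 lower in β4b than in β4e cultures (median differences -0.05 and -0.09), and 20 were higher in β4a than in β4b cultures (median 0.05). These 3 comparisons share arrays as well. No probe set passed limma's test for any pair, with or without the block. For β4b against β4e, 5 members (16.1%) were lower at an unadjusted p below 0.05 with the block, beside 7.11% of all probe sets, namely Unc13b, Sv2a, Rab3c, Stx1a and Pclo.

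Stx1a had the widest of these differences. Its β4b arrays were below those of β4e by -0.46, -1.15 and -1.06 in numbers 1 to 3, a mean of -0.89 (95% interval -1.61 to -0.17 in the blocked fit, limma adjusted p = 0.6753). For Syn3 the same difference was -0.61 (interval -1.25 to 0.03, adjusted p = 0.7078). The interval of Syn3 includes 0, and that of Stx1a, which is not adjusted for the number of probe sets, does not.

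The typical member varied more between replicate numbers than between groups. In limma's F test of replicate number with group in the model, 18 of 31 members (58.1%) passed, beside 65.2% of all probe sets. The median share of a member's sum of squares that lay between replicate numbers was 64.2%, and between groups 15.8%, beside 62.5% and 12.1% over all genes. Syn3 had the smallest p, with means of 9.32, 5.29 and 7.84 over the 4 arrays of numbers 1, 2 and 3 (adjusted p = 1e-05). Vamp1 (5.52, 7.29 and 5.92), Syt4 (13.73, 12.67 and 13.40), Stx1a (8.83, 6.27 and 6.41) and Unc13b (4.98, 5.82 and 5.41) followed. Of the 18, 10 were highest in number 2 and 5 in number 1. The brightest probe set of Syt1 was an opposite case, with 18.0% between numbers and 62.7% between groups. Those of Nrxn3 (23.8% and 31.4%) and Cplx1 (17.6% and 21.2%) also varied more between groups. The other Syt1 probe sets differed, at 79.1% and 14.2% (1438282_at), 2.0% and 31.1% (1431191_a_at) and 28.9% and 38.3% (1421990_at).

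Markers of other cells also varied with replicate number, but not all in the same order. The 2 measured Purkinje cell markers of 3 averaged 6.31, 3.60 and 4.84 in β4a cultures of numbers 1, 2 and 3, 6.66, 3.79 and 4.88 in β4b, 6.70, 3.54 and 4.73 in β4e, and 5.95, 3.88 and 4.32 in eGFP cultures, so that number 1 was highest and number 2 lowest in every group, in the same order as Syn3. The average of the 4 measured interneuron markers of 5 had this order as well. It was 10.11, 8.70 and 9.75 in β4a, 10.14, 9.07 and 9.43 in β4b, 10.59, 9.10 and 9.75 in β4e, and 10.07, 9.33 and 9.90 in eGFP cultures. Gad1, Gad2 and Slc32a1 had this order in every group. Pvalb had it in none, with 8.13, 9.20 and 9.09 in eGFP cultures. Pcp2, the defining Purkinje cell marker, was not above the filter, and in number 2 neither measured Purkinje marker was above 4 in any group. Other lists had other orders. The 5 measured oligodendrocyte markers averaged 9.62, 8.93 and 8.67 in β4a and 9.59, 8.67 and 8.33 in eGFP cultures of numbers 1 to 3. The 4 fibroblast markers averaged 5.43, 4.63 and 4.04 in β4a cultures. The 4 measured microglia markers averaged 6.51, 6.72 and 7.74 in β4a and 6.99, 6.77 and 7.46 in eGFP cultures. The part of these cells in the members' values was not tested. The 8 activity-regulated genes (Fos, Arc, Npas4 and others) averaged 10.71, 10.99 and 6.96 in β4a, 9.47, 9.53 and 7.01 in β4b, 5.35, 9.16 and 7.00 in β4e, and 5.56, 8.40 and 7.44 in eGFP cultures. Their difference between β4a or β4b and eGFP was thus widest in number 1, where the median presynaptic difference was 0.06 and 0.00, and its part in the members' differences was not tested.

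**Figure D5:**
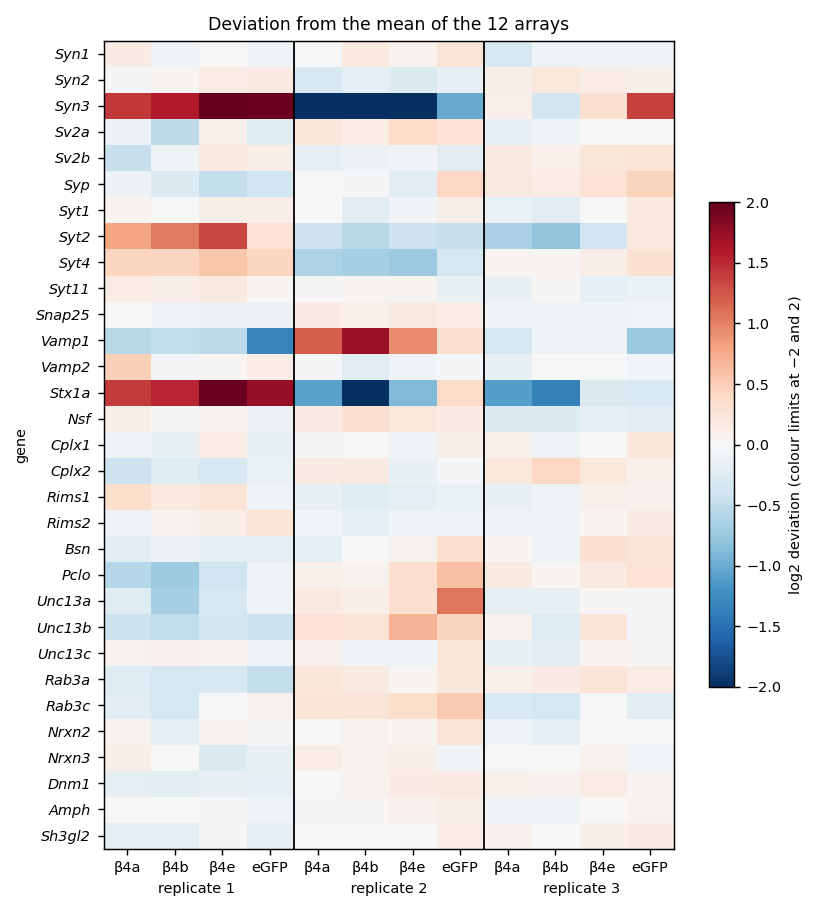
Deviation of each array from the gene's mean over 12 arrays (colour, log2, limits -2 and 2) for the 31 genes (rows, by role) with arrays (columns) ordered by replicate number and, within a number, β4a, β4b, β4e and eGFP. All 4 arrays of number 1 are above the mean for Syn3, Stx1a and Syt2 and below it for Vamp1, and all 4 of number 2 are below it for Syn3 and Syt4 and above it for Vamp1.

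Other presynaptic genes, from a longer list, lay on both sides of eGFP, and no test set them against the 31. Of 84 listed genes 72 were measured, and 39, 40 and 30 of them were below eGFP with β4a, β4b and β4e, with median differences of -0.02, -0.05 and 0.02. None of their 160 probe sets passed for any variant in either fit (smallest blocked limma adjusted p 0.1725, 0.0873 and 0.8734). The lowest with β4a was Slc17a6, the vesicular glutamate transporter VGLUT2, at -0.81, followed by the GTPase gene Rab3d at -0.50 and Rims4, a short RIM protein, at -0.49. With β4b these were Rims4 at -0.57, Dnm3 (a dynamin) at -0.42 and Slc17a6 at -0.41, and with β4e Rims4 at -0.50, Itsn1 (an endocytic scaffold) at -0.25 and Dnm3 at -0.23. Slc17a6 also followed the replicate numbers, at 6.21, 2.32 and 4.97 in β4a and 7.33, 2.69 and 5.90 in eGFP cultures.

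At the upper end stood Itsn2 (0.44), Stxbp6 (0.43), a syntaxin-binding protein, and Stx2 (0.39) with β4a, Stxbp6 (0.44), the scaffold kinase gene Cask (0.40) and Stx2 (0.40) with β4b, and Stx2 (0.35), Syt12 (0.33) and Lin7b (0.31) with β4e. Stx2, a syntaxin, was above eGFP in all 9 pairs, but its values of 3.29 to 3.92 in eGFP cultures were below the filter level. None of these genes passed the test.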

How the data were processed

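The series measured gene expression in 12 cultures on Affymetrix mouse 3′ arrays, 3 each for β4a, β4b, β4e and eGFP. Per the labels' protocols, 500 ng of RNA per sample were labelled with biotin. The deposited values are log2 intensities made by the authors with GCRMA, per the submitters' processing notes, and its version is not given in the sources used here. GCRMA corrects background by probe sequence and normalizes between arrays, which compresses or removes differences near background and any shift shared by all genes. Array medians lay between 3.83 and 3.90, and arrays correlated at 0.934 to 0.996 with each other.

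After 64 controls were left out, 23044 of the remaining 45037 probe sets with a value above 4 in at least 3 arrays were tested. By the annotation, 34945 probe sets had 1 symbol, 932 had several and 9160 had none. A single model over all 12 arrays was fitted in R 4.3.3 by limma 3.58.1 (lmFit, then eBayes, 8 residual degrees of freedom). Tests were two-sided, with Benjamini-Hochberg over all tested probe sets and a threshold of 0.05. The code was also run on simulated data with differences wider than any member's mean difference from eGFP. That run does not bear on the detection of small differences. The fit with replicate number as a block has 6 degrees of freedom. Same-numbered arrays deviated from their group means together (r 0.699 to 0.884 in all 18 pairs, at most 0.146 in others), so the numbers pair the arrays and blocked values stand beside the others. Differences per gene are means of the 3 pairs.

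Members and lists were chosen with earlier results of these data known. Values are given for the 5 highest and 5 lowest members per variant, the 5 smallest p of the F test, and Syn3, Stx1a, Vamp1 and Pclo on all probe sets. Of the other presynaptic genes the 3 highest and 3 lowest are named. Alternatives were the block, other filters, quantile normalization, eBayes with trend, averaging of probe sets, centring on all genes and leaving out arrays. Promoters came from RefSeq (GRCm38.p6), with an entry for 25 of 31 members. Precision is limited by the number of arrays.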

Additional observations from a re-analysis of the deposited data

Results flagged for a closer look

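Unc13b, the gene of Munc13-2, went opposite ways with 2 of the variants: all 3 β4b arrays were below the eGFP array of the same number (-0.06, -0.17 and -0.22) and all 3 β4e arrays above it (0.06, 0.24 and 0.31). β4b minus β4e was -0.35 on the log2 scale, with a 95% interval of -0.59 to -0.12 in the blocked fit. That difference did not pass limma's test (adjusted p = 0.6627 with the block and 0.9999 without it). The interval is not adjusted for the number of probe sets, and Unc13b was picked from the members for this pattern. The share of all genes that went opposite ways like this is not given here. The probe set read 4.92 to 5.67 in β4b, 5.04 to 6.09 in β4e and 4.98 to 5.84 in eGFP cultures, close to the filter level. A second Unc13b probe set was not above 4 on any array and gave no check.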

How the results depend on the processing

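With the replicate block the probe sets passing numbered 3 for β4a, 3 for β4b and 5 for the mean of the variants, against 0 without it. The block changed no member's call. The F test of replicate number passed 9881 probe sets with the filter at 6, against 15027, as fewer were tested. Relative to the median of all genes, 6 members were below eGFP in all 3 β4e pairs, against 3. The median difference ran from -0.12 to -0.03 for β4a, from -0.16 to -0.07 for β4b and from -0.06 to 0.03 for β4e over its alternatives.

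Of the 30 named differences of members, 9 changed sign when an array was left out without the block. Replicate numbers are then unequal between groups, and the part of this was not tested. Without the block their ranges were -0.013 to 0.21 (Nsf, β4a), -0.12 to 0.19 (Vamp2, β4a), -0.0074 to 0.32 (Cplx2, β4b), -0.071 to 0.22 (Nsf, β4b), -1.19 to 0.24 (Stx1a, β4e), -1.84 to 0.55 (Syn3, β4e), -0.41 to 0.46 (Syt2, β4e), -0.51 to 0.070 (Unc13a, β4e) and -0.039 to 0.49 (Unc13b, β4e). With both the block and an array left out, a setting chosen after seeing the data, Vamp2 with β4a was -0.088 without β4a replicate 1. Stx1a with β4e was then 0.11 without eGFP replicate 2, and Syt2 with β4e -0.033 without β4e replicate 1 and -0.23 without eGFP replicate 1. The rest of these differences kept their sign in that setting. With β4e, Syn3 ranged from -1.13 to -0.43, Unc13a from -0.48 to -0.09 and Unc13b from 0.16 to 0.29. Cplx2 with β4b ranged from 0.065 to 0.25, and Nsf from 0.0028 to 0.12 with β4a and from 0.016 to 0.13 with β4b.

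With 3 arrays a group and a wide spread between replicate numbers, small differences cannot be resolved, and values near 4 are close to background.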
